A study of Mus musculus with 9 samples.

Results

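Fatty acid oxidation and mitochondrial biogenesis genes were followed in MA-10, a cell line from a mouse Leydig cell tumour that answers cAMP with steroid synthesis. The set was a list of 41 gene symbols chosen by function, with earlier results of these data known. Of these symbols, 39 had a probe set that carried the symbol alone, out of 19938 genes measured in all. Cpt1b shares its probe set with a second symbol and Ucp2 has none listed under its own, so neither was measured here. The cells had been grown in medium with horse serum and then spent 1.5 h in serum-free medium with 10 µM forskolin plus 1 mM AICAR, with 10 µM forskolin alone, or with the DMSO vehicle (control; titled as untreated, while the treatment field names DMSO), 3 arrays in each group. Forskolin raises cAMP by switching on adenylyl cyclase, and AICAR is converted in the cell to an AMP mimic that activates the energy-sensing kinase AMPK. AICAR without forskolin was not analysed here. The comparisons ask how transcripts differ with forskolin, and with AICAR added to it. AMPK activity was not measured here. Values are RMA log2 expression values, so a difference of 1 is a doubling, and levels of different genes are not compared.

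Long-chain fatty acids enter mitochondria as carnitine esters made by CPT1 and are cut by repeated rounds of beta-oxidation, whose electrons pass through the electron transfer flavoprotein into the respiratory chain. Peroxisomes shorten very long and branched chains with their own enzymes. The PGC-1 coactivators, working with PPAR and ERR receptors, NRF1 and GABP, are known to raise the genes of this pathway and of mitochondrial DNA upkeep, and in muscle and liver AMPK is known to act on PGC-1alpha and, through acetyl-CoA carboxylase, on CPT1 activity. In Leydig cells mitochondria are also where steroid synthesis begins.

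Of the Leydig cell markers listed, 8 had a probe set, and Lhcgr and Insl3 were not measured. With forskolin 3 of the 8 were called higher and none lower, against 0.497% and 0.196% of all genes. With AICAR against forskolin 4 were called lower and none higher, against 4.12% and 0.978% of all genes. Forskolin raised Star, the mitochondrial cholesterol carrier (log2 difference 1.89, SE 0.06, adjusted p = 2.8e-07), and with AICAR it was lower than with forskolin (−2.05, SE 0.06, adjusted p = 5.2e-07). Fdx1, the electron donor of the mitochondrial steroid enzymes, was the 1 Leydig marker called against control with AICAR (0.56, adjusted p = 0.00032). In that comparison 8.72% of all genes were called. The Leydig cell transcription factors Nr5a1 and Gata4 were called in no comparison. Of 30 markers of Sertoli, germ, macrophage, peritubular or fibroblast, and endothelial cells with a probe set, none passed the test with forskolin. Sox9 (−0.46 against forskolin) and Cd68 (−0.39) were the 2 called with AICAR, both lower, against forskolin and against control. That was 6.67% of these markers each time, against 5.1% and 8.72% of all genes. By sign, 19 of the 30 lay above zero against forskolin (median 0.04), as did 11804 of all 19938 genes (median 0.02). The 19 were 4 of 7 Sertoli, 4 of 6 germ, 3 of 6 macrophage, 4 of 6 peritubular or fibroblast and 4 of 5 endothelial markers. Their part in the results was not tested. Array medians lay between 7.14 and 7.19. The interquartile range of the log2 values was 3.349 and 3.341 in AICAR replicates 2 and 3. It was 3.416 to 3.482 in the other 7 arrays, AICAR replicate 1 included. AICAR replicates 1 and 3 stood furthest from their group: the SD across genes of the deviation from the group mean was 0.0927 and 0.0933 in them, against 0.0515 to 0.077 in the other 7 arrays. Among the 39 members, AICAR replicate 1 gave the highest value of its group in 24 and AICAR replicate 2 in only 3. The labels do not state whether replicates came from separate cultures, and the p-values then cover only array-to-array spread, which may be technical. In these bulk samples of a single cell line, fewer cells expressing a gene and less of its RNA per cell cannot be told apart.

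With AICAR added to forskolin, 3 of the 39 members fell and none rose in limma's test: Ppara, a fatty-acid-sensing nuclear receptor that drives oxidation genes, Cpt1a, the liver-type carnitine palmitoyltransferase that lets long-chain fatty acids into mitochondria, and Ehhadh, the peroxisomal bifunctional enzyme. All 3 changes were small, at most 1.21-fold. The called share was 7.69% of the members, against 5.1% of all genes in either direction (0.978% higher and 4.12% lower), so it lay near the background. Quantile normalization and median centring of the deposited values each gave 2 lower (Ppara with Cpt1a, and Ppara with Ehhadh) and 1 higher (Ppargc1a). Over the members the median difference was −0.01 and the median size of a difference 0.05, against 0.02 and 0.08 over all genes.

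Ppara had log2 values of 9.33, 9.24 and 9.22 on the forskolin with AICAR arrays, against 9.44, 9.52 and 9.52 with forskolin and 9.43, 9.42 and 9.44 in control. Every AICAR array lay below every other array. The fall against forskolin was 0.23 on the log2 scale (−0.23, SE 0.04, adjusted p = 0.012), or 1.17-fold. The call was lost without forskolin replicate 2 (adjusted p = 0.057), forskolin replicate 3 (0.053) or AICAR replicate 2 (0.054).

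Cpt1a had 11.96, 11.96 and 11.92 with AICAR, against 12.09, 12.13 and 12.12 with forskolin and 12.12, 12.11 and 12.10 in control. Replicates lay within 0.04 of each other in each group, and the AICAR arrays did not overlap the rest. The log2 difference from forskolin was −0.17 (SE 0.03, adjusted p = 0.022), and the call was lost without any 1 forskolin array (adjusted p = 0.051, 0.089 and 0.07 without replicates 1, 2 and 3) or AICAR replicate 2 (0.063).

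Ehhadh had 7.34, 7.27 and 7.48 with AICAR, against 7.56, 7.64 and 7.72 with forskolin and 7.74, 7.72 and 7.75 in control. The AICAR arrays were the lowest, and the forskolin and control arrays overlapped. The log2 difference from forskolin was −0.28 (SE 0.06, adjusted p = 0.031). This call was lost without any 1 control array (adjusted p = 0.052 to 0.058), which only serve to estimate the spread, or without forskolin replicate 2 (0.096), forskolin replicate 3 (0.11) or AICAR replicate 2 (0.11).

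**Figure D1:**
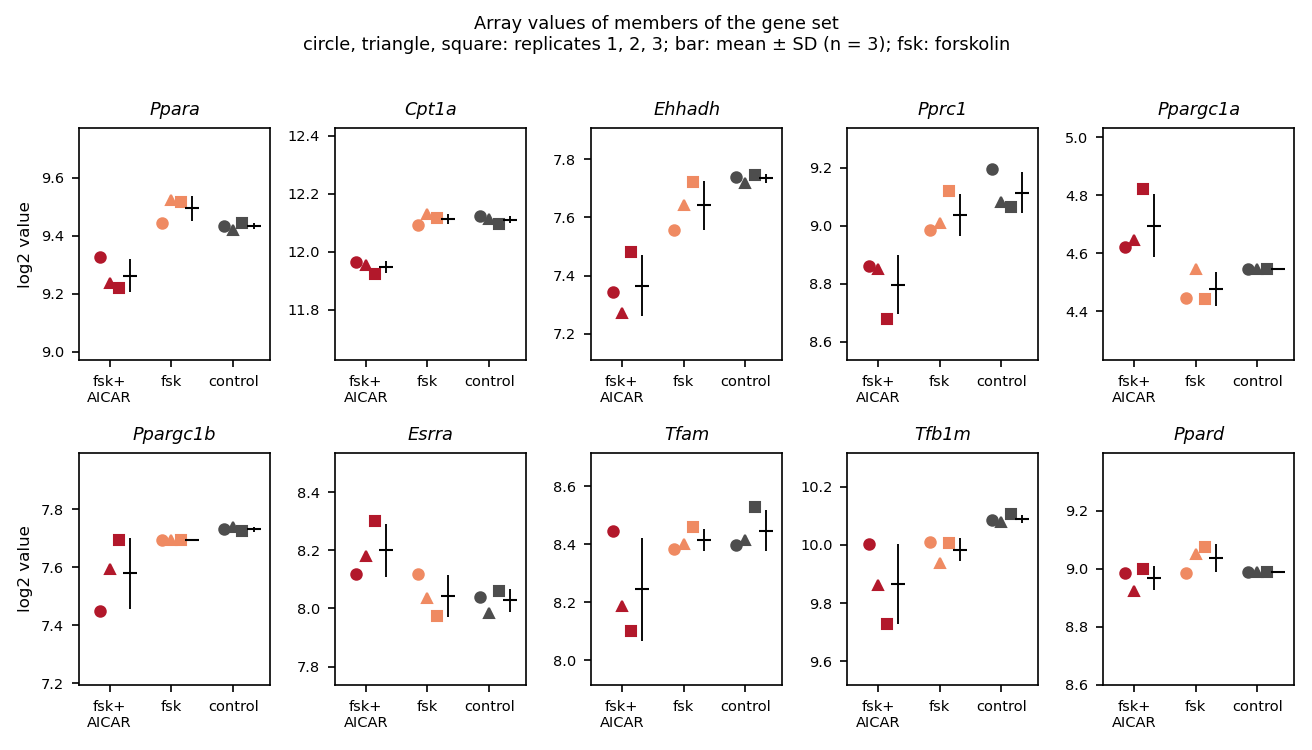
Log2 values on all 9 arrays for 10 members of the set, a panel per gene, with forskolin plus AICAR at the left, forskolin in the middle and control at the right. Symbols are replicates 1, 2 and 3, bars are mean ± SD (n = 3), and every vertical axis spans at least 0.8. The AICAR arrays of Ppara, Cpt1a, Ehhadh and Pprc1 lie below all others, while those of Tfam and Tfb1m spread widely.

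Against control, the forskolin with AICAR arrays had 4 members lower and none higher, 10.3% of the members against 8.72% of all genes (3.04% higher and 5.68% lower), again near the background. This comparison shares its AICAR arrays with the previous one. Ehhadh was 1.29-fold lower (log2 difference −0.37, SE 0.06, adjusted p = 0.0068), and it kept that call under every alternative run, with adjusted p between 0.00031 and 0.033. Cpt1a (−0.16, SE 0.03, adjusted p = 0.019) and Ppara (−0.17, SE 0.04, adjusted p = 0.035) were lower too, and Pprc1 joined them. The Cpt1a call was lost without any 1 control array (adjusted p up to 0.065) or AICAR replicate 2 (0.055). The Ppara call was lost without any 1 control array (up to 0.12), forskolin replicate 2 (0.06), or AICAR replicate 2 or 3 (0.11 and 0.087).

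Pprc1 encodes PRC, the serum-responsive member of the PGC-1 family. Its values were 8.86, 8.85 and 8.68 with AICAR, against 8.98, 9.01 and 9.12 with forskolin and 9.19, 9.08 and 9.06 in control. The AICAR arrays were below all others. The log2 difference was −0.32 against control (SE 0.06, adjusted p = 0.017; 0.055 without control replicate 1) and −0.24 against forskolin, where it missed the threshold (adjusted p = 0.06).

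The promoters of the 4 genes that were lower with AICAR are shown because these are the members called against control; each line gives the 250 bases before a RefSeq transcript start (GRCm38.p6), 5′ to 3′ on the gene's strand. Capitals mark TGACG, the core of the CREB site through which cAMP acts on many promoters, and GCGCATGC, the core of the NRF1 site, both searched on both strands.
Ppara, chr15:85735526-85735775, plus strand: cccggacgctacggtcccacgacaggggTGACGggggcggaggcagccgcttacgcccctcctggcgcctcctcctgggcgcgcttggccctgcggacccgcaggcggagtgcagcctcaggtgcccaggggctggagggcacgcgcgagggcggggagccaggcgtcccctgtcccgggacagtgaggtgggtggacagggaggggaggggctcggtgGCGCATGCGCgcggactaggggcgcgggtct
Cpt1a, chr19:3323051-3323300, plus strand: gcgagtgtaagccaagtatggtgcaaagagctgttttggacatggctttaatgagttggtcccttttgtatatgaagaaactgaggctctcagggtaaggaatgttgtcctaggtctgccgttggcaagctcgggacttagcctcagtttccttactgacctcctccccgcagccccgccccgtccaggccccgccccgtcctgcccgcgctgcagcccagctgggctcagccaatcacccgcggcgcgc
Ehhadh, chr16:21787835-21788084, minus strand: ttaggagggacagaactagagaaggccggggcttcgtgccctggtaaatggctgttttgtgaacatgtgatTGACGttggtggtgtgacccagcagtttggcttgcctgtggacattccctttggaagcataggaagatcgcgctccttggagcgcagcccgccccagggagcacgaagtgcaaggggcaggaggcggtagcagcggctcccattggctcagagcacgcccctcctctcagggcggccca
Pprc1, chr19:46056289-46056538, plus strand: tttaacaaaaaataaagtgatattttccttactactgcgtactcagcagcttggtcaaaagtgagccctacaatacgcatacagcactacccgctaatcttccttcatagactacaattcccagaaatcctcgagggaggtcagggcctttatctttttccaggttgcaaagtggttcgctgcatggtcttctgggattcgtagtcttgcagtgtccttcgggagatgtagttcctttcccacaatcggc
Ppara held a TGACG match that begins 222 bases before the start and overlapping NRF1 core matches on both strands from 31 and 29 bases before it. Ehhadh held a TGACG match 179 bases before its start, and the windows of Cpt1a and Pprc1 held neither motif. The full palindromic CREB site TGACGTCA was in none of the 37 windows found for 35 members, and in 1.55% of 32544 mouse windows of this length. TGACG, which lies within TGACGTCA, was in 24.3% of the members' windows and 17.8% of all, GCGCATGC in 13.5% (Acadm, Esrra, Etfa, Etfdh and Ppara) and 2.27%, and the GABP site CCGGAAG in 10.8% (Cpt2, Gabpa, Mlycd and Tfam) and 6.95%. TNAAGGTCA, an ERR site, was in no member window and in 1.13% of all. The mouse windows were not matched to those of the members for base composition or gene type, and the differences in share were not tested. These matches describe letters, not bound sites.

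The other PGC-1 coactivators gave no call. Ppargc1a, which encodes PGC-1alpha, had 4.62, 4.64 and 4.82 with AICAR, against 4.45, 4.55 and 4.44 with forskolin and 4.55 on each control array. The AICAR arrays lay above all others, and all values of this probe set lay below the array medians. The log2 difference from forskolin was 0.22 (SE 0.06, 95% interval 0.091 to 0.343, adjusted p = 0.059). A second, dimmer Ppargc1a probe set gave −0.03 (SE 0.03), so the higher value was not seen by both. The first reached an adjusted p of 0.045 after quantile normalization and 0.037 after median centring, and 0.024 with array weights. It stayed uncalled in 13 of 17 alternatives (limma adjusted p up to 0.27), and both dim-probe filters removed it. Ppargc1b had 7.45, 7.59 and 7.69 with AICAR, against 7.69 on each forskolin array and 7.73, 7.74 and 7.72 in control. Only AICAR replicates 1 and 2 stood below the forskolin arrays (log2 difference −0.12, SE 0.06, adjusted p = 0.24).

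Esrra, the orphan receptor that partners PGC-1alpha on oxidation genes, had 8.12, 8.18 and 8.30 with AICAR, against 8.12, 8.04 and 7.97 with forskolin and 8.04, 7.98 and 8.06 in control. The highest forskolin array nearly met the lowest AICAR array, and the difference did not pass (0.16, SE 0.06, adjusted p = 0.14). Ppard, the widely expressed PPAR, had 8.98, 8.92 and 9.0 with AICAR, against 8.98, 9.05 and 9.08 with forskolin and 8.99 on each control array, overlapping groups (−0.07, SE 0.04, adjusted p = 0.3). The respiratory gene regulators Nrf1 and Gabpa differed from forskolin by 0.03 each (adjusted p = 0.6 and 0.73).

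Tfam packages and transcribes mitochondrial DNA, and Tfb1m and Tfb2m modify its ribosomal RNA and start its transcription. Tfam had 8.44, 8.19 and 8.10 with AICAR, against 8.39, 8.40 and 8.46 with forskolin and 8.40, 8.42 and 8.53 in control. AICAR replicate 1 sat among the other groups while replicates 2 and 3 lay below them (−0.17, SE 0.08, adjusted p = 0.23). Tfb1m had 10.00, 9.86 and 9.73 with AICAR, against 10.01, 9.94 and 10.01 with forskolin and 10.08, 10.08 and 10.11 in control, with replicate 1 again nearest to forskolin (−0.12, SE 0.06, adjusted p = 0.26). Against control Tfb1m was at −0.23 (SE 0.06, adjusted p = 0.054), and Tfb2m differed from forskolin by −0.10 (adjusted p = 0.37).

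The number of members that passed rested on single arrays. Without AICAR replicate 1, 9 were called against forskolin, 6 lower and 3 higher, which is 23.1% of the members against 16.7% of all genes in the same fit. The additions were Tfam (−0.27, adjusted p = 0.015), Tfb1m (−0.19, adjusted p = 0.036) and Pprc1 (−0.27, adjusted p = 0.032) lower, and Ppargc1a (0.25, adjusted p = 0.025), Esrra (0.20, adjusted p = 0.046) and Acads (0.18, adjusted p = 0.038) higher. Genes called over the whole array likewise numbered 3324 without it, against 1017 with all arrays. Against control, 8 members were called without AICAR replicate 1, or 20.5%, below the 23.8% of all genes. Leaving out AICAR replicate 2, forskolin replicate 2 or forskolin replicate 3 left no member called against forskolin. Those fits called 2.65%, 2.88% and 2.44% of all genes, so few calls remained anywhere. What sets these arrays apart was not tested.

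**Figure D2:**
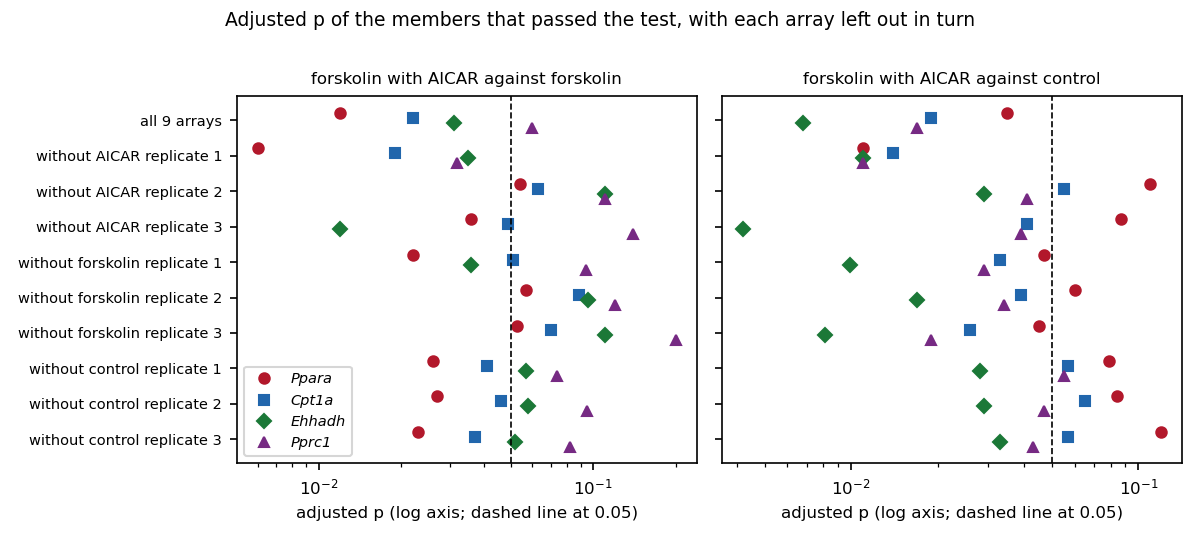
Adjusted p (log axis) of Ppara, Cpt1a, Ehhadh and Pprc1 for forskolin with AICAR against forskolin (left) and against control (right), with all 9 arrays and with each array left out. Points right of the dashed line at 0.05 did not pass. In the right panel Ehhadh stays between 0.0042 and 0.033.

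No enzyme of the mitochondrial beta-oxidation spiral was called with AICAR: 0 of 9 passed in limma against forskolin, and 1 had an unadjusted p under 0.05, against 5.1% and 24.1% of all genes. From the acyl-CoA dehydrogenases to the thiolase, differences from forskolin ran from −0.05 for Acadm to 0.14 for Acads (adjusted p = 0.12), and all 95% intervals lay between −0.161 and 0.250. The groups did not overlap in 2 of the 9 (22.2%, against 23.6% of all genes). The long-chain enzymes Acadvl (0.04), Hadha (0.01) and Hadhb (−0.04, and −0.03 in a second probe set) and the medium-chain and short-chain steps Echs1 (0.04), Hadh (−0.04) and Acaa2 (−0.02) stayed within 0.05 of forskolin. Acadl, a further long-chain dehydrogenase, had 12.12, 12.16 and 12.09 with AICAR, against 12.03, 12.12 and 12.08 with forskolin and 12.20, 12.12 and 12.12 in control, with overlapping groups.

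Of the carnitine shuttle, Cpt1a alone was called: Cpt1c, the neuronal paralogue, Cpt2, the inner-membrane enzyme, and Crat, which handles short chains, were at 0.05, −0.02 and 0.07 against forskolin (adjusted p = 0.48, 0.8 and 0.29). The enzymes that deal with double bonds, Ech1 (0.09), Eci1 (−0.01), Eci2 (−0.04) and Decr1 (0.03), and the flavoprotein subunits and dehydrogenase Etfa (0.00), Etfb (−0.01) and Etfdh (−0.07) were not called.

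Ehhadh was the 1 peroxisomal member called. Hsd17b4, the second bifunctional enzyme of that organelle, was at −0.01 (adjusted p = 0.9) and the branched-chain oxidase Acox3 at −0.03 (adjusted p = 0.67). The thiolase Acaa1a had 8.81, 8.81 and 8.92 with AICAR, against 8.74, 8.73 and 8.72 with forskolin and 8.85, 8.82 and 8.79 in control. Its AICAR arrays lay above the forskolin arrays and overlapped control (0.12 against forskolin, SE 0.04, adjusted p = 0.14).

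Of the fuel-switch genes, Pdk4, the kinase that shuts off pyruvate dehydrogenase when fat is burned, had 9.72, 9.63 and 9.64 with AICAR, against 9.67, 9.77 and 9.84 with forskolin and 9.62, 9.75 and 9.83 in control. The groups overlapped (−0.10 against forskolin, SE 0.06, 95% interval −0.237 to 0.043, adjusted p = 0.35). Its relative Pdk2 (0.01), the uncoupling protein gene Ucp3 (0.06) and Mlycd (−0.01), whose enzyme removes the CPT1 inhibitor malonyl-CoA, were not called.

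**Figure D3:**
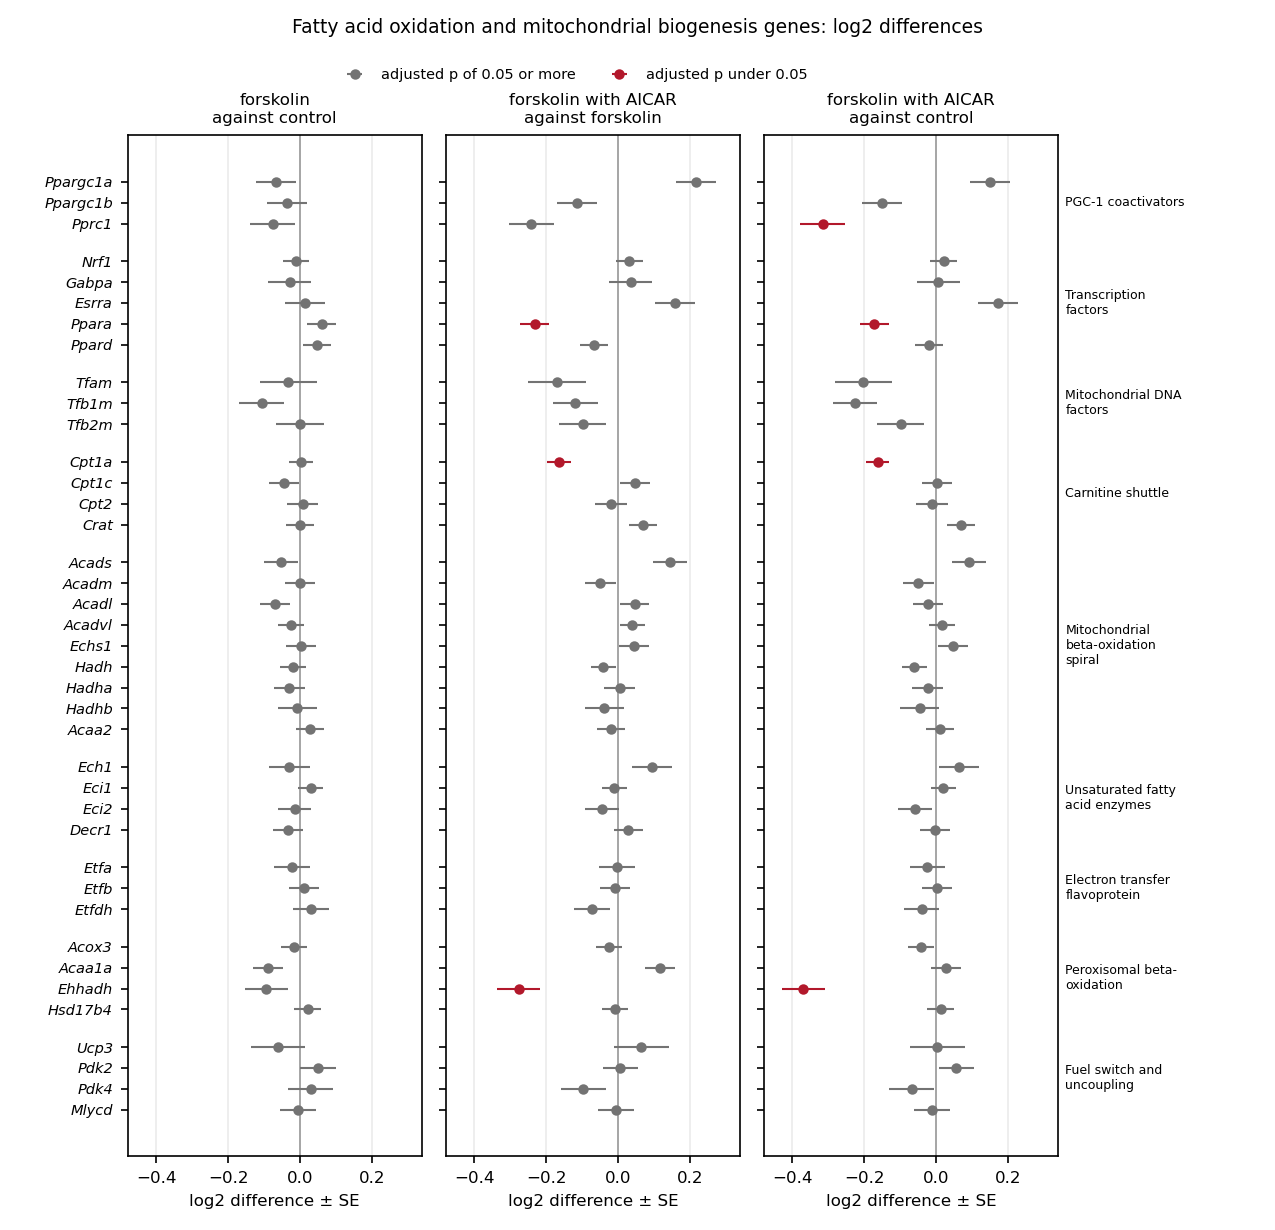
Log2 differences ± SE of the 39 measured members, grouped by role, for the 3 comparisons. Red points passed an adjusted p of 0.05. None is red for forskolin against control, 3 are for forskolin with AICAR against forskolin, and 4 for forskolin with AICAR against control.

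No member of the set passed the test with forskolin alone. In limma 0 of 39 passed, and 0 of 39 reached an unadjusted p under 0.05, against 0.692% (0.497% higher and 0.196% lower) and 7.27% of all genes. No alternative called a member either, array weights and the replicate block included. Differences ran from −0.11 (Tfb1m, adjusted p = 0.83) to 0.06 (Ppara, adjusted p = 0.87). The 95% intervals of all 39 lay between −0.246 and 0.170, so that a doubling or halving of any member's array value lay outside its interval. For Ppargc1a the mean was only 4.57 and no detection calls were used. A change in its RNA may therefore not show in its array value. Nearest to a call in limma were Acaa1a (−0.09, adjusted p = 0.71), Tfb1m and Acadl (−0.07, adjusted p = 0.83). The groups did not overlap in 3 members, Ppargc1b, Tfb1m and Acaa1a, each lower, against 14% of all genes (6.85% higher and 7.13% lower). With AICAR against forskolin that held for 10 members, 5 each way, against 23.6% of all genes (11.5% higher and 12.2% lower), and with AICAR against control for 11, 4 higher and 7 lower, against 29.5% (15.2% higher and 14.3% lower).

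**Figure D4:**
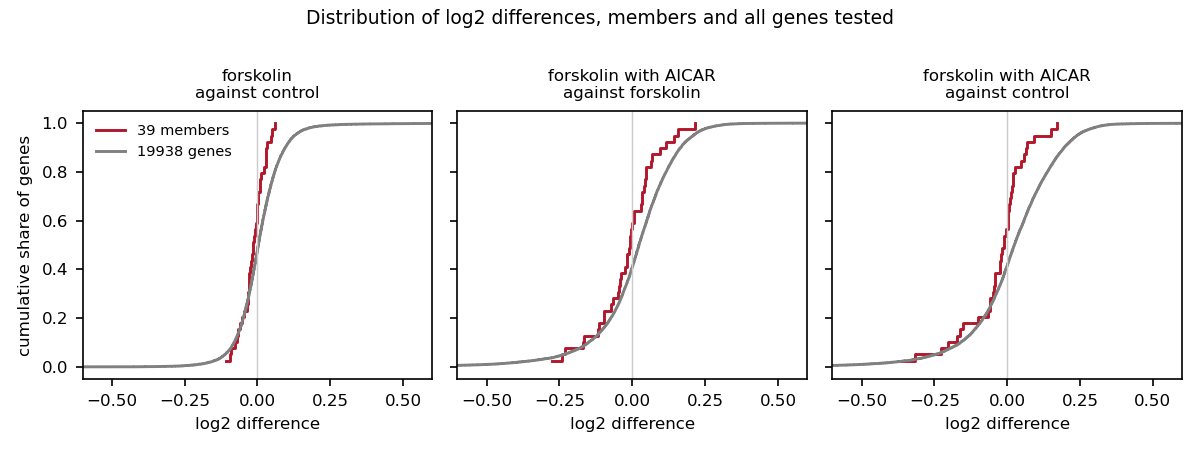
Cumulative distribution of log2 differences for the 39 members (red) and all 19938 genes (grey) in the 3 comparisons. The members' curve is the steeper with forskolin, where its differences span −0.11 to 0.06, and lies slightly to the left of all genes with AICAR, with medians of −0.01 and 0.02 against forskolin.

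Other genes of the same pathways were read from a pair of lists outside the set. Both lists were chosen with earlier results of these data known. Their shares beside those of all genes are descriptive, and a difference in share was not tested. Of 38 measured genes of fatty acid uptake, activation and oxidation, 1 rose with forskolin, and with AICAR 4 fell against forskolin and 3 against control, none rising (10.5% and 7.89%, against 5.1% and 8.72% of all genes; median −0.03 in both). Slc22a5, the plasma-membrane carnitine transporter OCTN2, was the gene raised by forskolin. It had 9.42, 9.39 and 9.46 with forskolin, against 8.85, 9.03 and 9.005 in control, a rise of 0.46 (SE 0.05, adjusted p = 0.0039) with no overlap. With AICAR it had 8.95, 9.02 and 9.04, a difference of −0.42 from forskolin (SE 0.05, adjusted p = 0.0022) that placed it among the control arrays (0.04, SE 0.05, adjusted p = 0.59). Both Slc22a5 calls were lost only when replicate 3 of every group was left out together (adjusted p = 0.16 and 0.068).

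Pdp1, the phosphatase that turns pyruvate dehydrogenase back on, had 10.19, 10.16 and 10.27 with AICAR, against 10.42, 10.45 and 10.42 with forskolin and 10.54, 10.59 and 10.57 in control. Its groups did not overlap anywhere. It was lower by 0.22 against forskolin (−0.22, SE 0.04, adjusted p = 0.012; 0.056 without forskolin replicate 2) and −0.36 against control (SE 0.04, adjusted p = 0.0011). The peroxisome division factor Pex11a (−0.29, SE 0.06, adjusted p = 0.034) and the sterol carrier and thiolase gene Scp2 (−0.29, SE 0.07, adjusted p = 0.047) were lower against forskolin, but each lost its call without any 1 of 7 single arrays, controls among them (adjusted p up to 0.12 and 0.14). Crot, which makes carnitine esters of medium chains in peroxisomes (−0.25, SE 0.06, adjusted p = 0.027), and the fatty acid transporter Slc27a4 (−0.16, SE 0.04, adjusted p = 0.045) were lower against control, and lost their calls without any 1 of 6 or more arrays (adjusted p up to 0.11 and 0.13).

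Of 23 further genes of mitochondrial biogenesis and DNA upkeep, none passed with forskolin (2 at an unadjusted p under 0.05, where 7.27% of all genes lay), and 3 fell with AICAR in both of its comparisons, where none rose (13% of the list each time, against 5.1% of all genes against forskolin and 8.72% against control). Polg2, the accessory subunit of the mitochondrial DNA polymerase, had 7.38, 7.48 and 7.23 with AICAR, against 7.70, 7.79 and 7.91 with forskolin and 7.82, 7.78 and 7.82 in control. Its AICAR arrays were the lowest (−0.43 against forskolin, SE 0.07, adjusted p = 0.0067). Twnk, the mitochondrial DNA helicase, had 7.74, 7.63 and 7.77 with AICAR, against 8.05, 7.97 and 8.11 with forskolin and 7.99, 8.10 and 8.04 in control, again without overlap (−0.33, SE 0.05, adjusted p = 0.0069). Neither call was lost when any single array was left out. Both were lost when replicate 3 of every group was left out together (adjusted p = 0.068 and 0.087). Sirt1, a deacetylase that acts on PGC-1alpha, had 9.07, 8.88 and 8.91 with AICAR, against 9.24, 9.34 and 9.45 with forskolin and 9.19, 9.21 and 9.20 in control. It was lower against forskolin (−0.39, SE 0.06, adjusted p = 0.0081), a call lost only without replicate 3 of every group (adjusted p = 0.15). Against control it was lower too (−0.24, SE 0.06, adjusted p = 0.047). There the call was lost without any 1 control array, forskolin replicate 2, or AICAR replicate 2 or 3 (adjusted p up to 0.15).

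**Figure D5:**
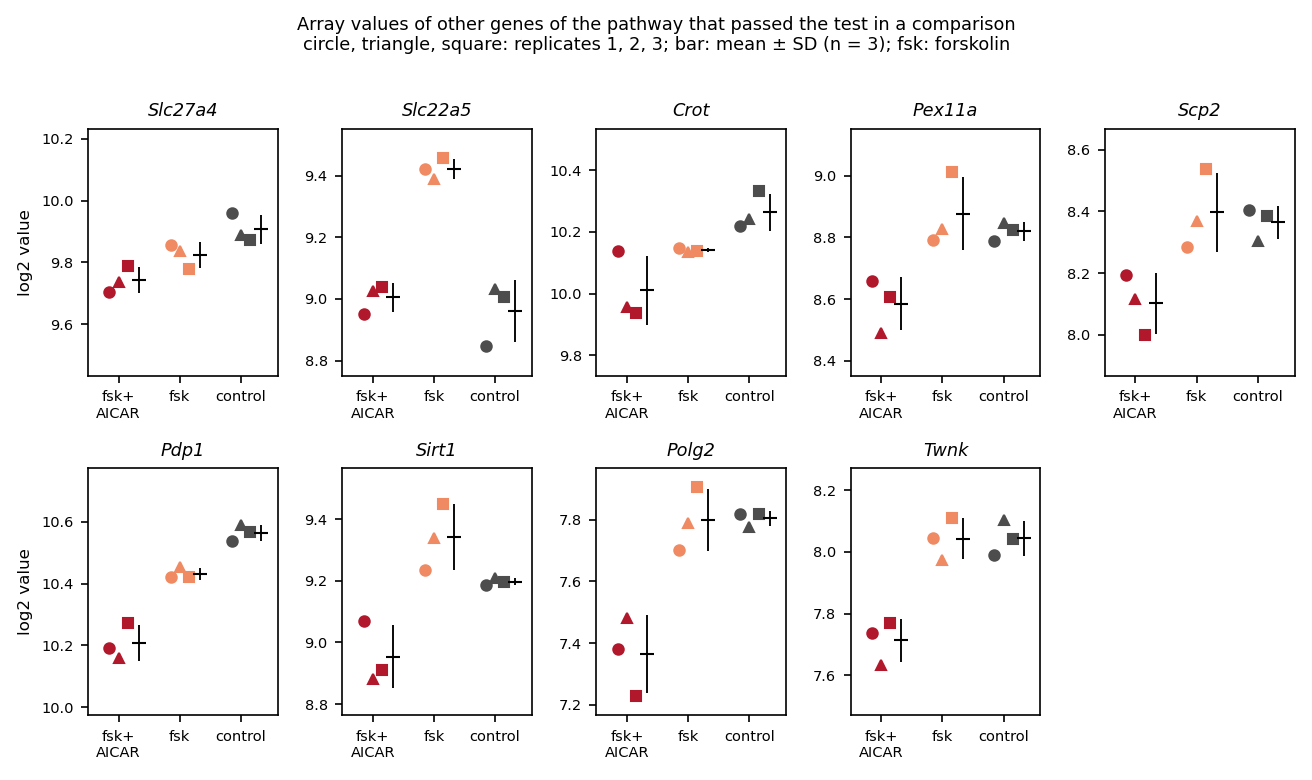
Log2 values on all 9 arrays of the 9 genes outside the set that passed the test in at least 1 comparison, with forskolin plus AICAR at the left, forskolin in the middle and control at the right; bars are mean ± SD (n = 3). Slc22a5 is high only on the forskolin arrays, and Polg2 and Twnk are low only on the AICAR arrays.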

How the data were processed

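The deposited values are log2 summaries per probe set of 9 Affymetrix whole-transcript arrays, credited to RMA and Partek per the submitters' processing notes, without versions or settings. The genome build is not given in the sources used here. Of 35557 probe sets, 21789 carried 1 gene symbol in the platform annotation, and the brightest per gene by mean over the 9 arrays was kept, giving 19938 genes. In 60.8% of genes, and 21 of 39 members, the deposited values of at least 2 arrays were identical, so some group SDs are 0. No detection calls were used and the number of arrays limits the precision.

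A linear model over the 9 arrays was fitted with limma 3.58.1 under R 4.3.3 (two-sided moderated test), with Benjamini-Hochberg adjustment over all genes of a comparison, and a gene was called at an adjusted p under 0.05. The code was tested on simulated data. Values on every array are printed for members called in any comparison, for the 3 smallest p values per comparison, and for 9 members chosen for their role. Called genes of both other lists are named. The members and lists were chosen with earlier results of these data known. Lists of other genes were resolved through the RefSeq gene table of GRCm38.p6, which also names the promoter windows. The main fit did not pair arrays by number. Deviations of same-numbered control and forskolin arrays correlated at 0.24, 0.01 and 0.33. Those of AICAR arrays with same-numbered others lay between −0.41 and 0.08. AICAR replicate 1 instead correlated at 0.49 and 0.45 with replicate 3 of control and of forskolin. AICAR replicate 3 correlated at 0.27 and 0.31 with replicate 1 of control and of forskolin. What this shared pattern reflects was not tested. Alternatives were a replicate block, dim-probe filters at a mean of 5 or 6, quantile normalization, median centring, a trended robust prior, array weights, fits of only the groups compared, the mean of a gene's probe sets, thresholds of 0.1 and 0.01, each array left out, and replicate 3 of every group left out. Motif counts and plots were made with matplotlib 3.10.9, numpy 2.4.6 and pandas 2.3.3 in Python 3.11.15.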

Additional observations from a re-analysis of the deposited data

How the results depend on the processing

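Forskolin called no member under any of the 21 alternatives. The 3 members called with AICAR against forskolin became 5 at a threshold of 0.1, 0 at 0.01 and 1 with the replicate block. Of all genes, 9.13%, 2.05% and 2.92% were called there. With array weights 11 members were called (7 lower and 4 higher), or 28.2%, against 28.7% of all genes. They became 0 when only these groups were fitted and 0 without replicate 3 of every group, against 2.49% and 1.21% of all genes. With single arrays left out they numbered 0 to 9, against 2.44% to 16.7% of all genes. The 4 members called against control became 1 at 0.01, 2 with the replicate block and 8 with array weights. Of all genes, 2.52%, 4.38% and 33.2% were called there. They became 2 when only these groups were fitted and 1 without replicate 3 of every group, against 3.8% and 1.89% of all genes. With single arrays left out they numbered 1 to 8, against 3.31% to 23.8% of all genes. The 1 other pathway gene called with forskolin became 2 at a threshold of 0.1, with genes of a mean of at least 6, with the trended robust prior and with array weights. It became 0 without replicate 3 of every group. Of all genes, 0.918%, 1.02%, 0.958%, 2.19% and 0.216% were called in those fits. The 7 other pathway genes called with AICAR against forskolin became 4 at 0.01, 19 with array weights and 4 when only these groups were fitted. They became 0 without replicate 3 of every group, and 4 to 12 with single arrays left out. The 6 other pathway genes called against control became 12 at 0.1, 3 at 0.01, 3 with the replicate block and 19 with array weights. They became 3 when only these groups were fitted, 2 without replicate 3 of every group, and 3 to 13 with single arrays left out. The shares of all genes called in these fits are given above, and the share against control at 0.1 was 18.8%. The cause of these shifts was not tested. The replicate block assumes that equal numbers go together, which the deviations of AICAR replicates 1 and 3 did not follow. The log2 differences of the single genes followed were counted over every gene, comparison and setting. Of these, 1100 stayed on their side of the threshold, 103 lost a call, 45 gained one and no called value changed sign. Most of the 1100 were not called in the main fit either, so these counts do not give the share of calls that held. Over all genes, the 1017 calls with AICAR against forskolin numbered 487 to 3324 with single arrays left out, 583 with the replicate block and 5729 with array weights, and the 1739 against control 660 to 4741, 874 and 6619. The 138 with forskolin numbered 76 to 144, 83 and 436. The share of calls that were higher was 19.2% with AICAR against forskolin (41.6% after quantile normalization, 35.4% after median centring, 53.7% with array weights, 50.5% without AICAR replicate 1), 34.8% against control (54.1% with array weights, 56.4% without AICAR replicate 1, 50.2% at a threshold of 0.1) and 71.7% with forskolin (58.5% after median centring, 48.6% with array weights).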
